A study of Mus musculus with 20 samples.

Results

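Gene expression in 2 kidney cell clones labelled as deleted for Fh1, the gene of fumarate hydratase, was compared with that in 2 lines labelled as having the wild-type gene. All 20 libraries of the series entered, 5 from each line. The tested side held the 10 libraries of clone1 and clone19, both labelled with an Fh1 deletion, and the other side the 10 libraries of Rec, labelled as having wild-type Fh1 re-expressed, and of Fh1_fl_fl, labelled Fh1 wild type. Each line had equal weight. The genes described are those whose 10 clone libraries all lay on one side of the 10 competent libraries, called separated genes below: 2800 of the 12671 genes that had enough reads to test. Choosing them used the same values that are described here, so the levels and differences of separated genes are a description. Differences between the clones or between the competent lines are not independent of the choice either, since a large difference within a status makes separation less likely.

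All 4 lines are immortalised epithelial cells from C57BL/6J mouse kidney, and all were grown in the same serum-containing DMEM with added uridine. Each line is 1 cell population, so a status is represented by 2 lines. The labels do not say from which cells Rec was derived, what drives its Fh1, which stretch of Fh1 is deleted, or whether the 5 libraries of a line are separate cultures. P-values from the libraries therefore measure the spread between libraries, which may be technical, and not the spread between independently made lines. In such bulk RNA, fewer cells of a type and less RNA per cell cannot be told apart.

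Fumarate hydratase turns fumarate into malate in the tricarboxylic acid (TCA) cycle. Without it fumarate accumulates, and fumarate is known to inhibit the 2-oxoglutarate-dependent prolyl hydroxylases that mark the hypoxia-inducible factors (HIF) for breakdown, and to modify cysteines of KEAP1, the protein that keeps the transcription factor NRF2 low. In human kidney, loss of the enzyme underlies hereditary leiomyomatosis and renal cell cancer, and the resulting loss of epithelial character has been linked to inhibited demethylation of DNA.

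Gene totals ran from 5988447 to 12171975 counts in the clone libraries and from 8672778 to 18972176 in the competent libraries. Expression is given below as CPM, counts divided by the library's gene total and scaled to a common size after TMM normalization, which removes differences in overall composition. The share of reads aligned to several places was 30 to 40.3% in the clones and 28.8 to 34.3% in the competent lines. Replicate 3 of clone19 stood apart: 8.2% of its counts fell on Gm42418, a gene that overlaps ribosomal RNA sequence, against a median of 0.314% over all libraries. Without that library 1511 genes separated upwards and 1349 downwards, against 1443 and 1357 with it. Defining epithelial markers were present in every library of both sides, among them Cdh1 with at least 135 CPM in the clones and 321 CPM in the competent lines. Among markers of other cell types, Nphs1 (podocytes), Pecam1 (endothelium), Ptprc (leukocytes) and Myh11 (smooth muscle) stayed at or below 1.16 CPM in every library. Others were higher and differed by status: Csf1r (leukocytes), Cdh5 (endothelium) and Des (smooth muscle) reached 15.1, 9.44 and 6.67 CPM in the clones, against 47.7, 0.899 and 0.245 CPM in the competent lines.

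On average 79.7% of tested genes differed. With the libraries as replicates, 4990 genes were higher in the clones (39.4% of those tested) and 5103 were lower (40.3%), at an adjusted p under 0.05 in edgeR's quasi-likelihood test. A test against a 2-fold bound kept 1201 genes higher (9.48%) and 788 lower (6.22%). An average over lines can be carried by a single line: in 3812 called genes the 4 possible pairs of a clone and a competent line did not all have the same sign. All 4 pairs were called in the same direction for 2034 higher genes (16.1%) and 1949 lower genes (15.4%).

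The lines themselves set the limit of these calls. When the 5 libraries of each line were summed and the 2 clones were set against the 2 competent lines, edgeR called 0 of 14551 genes, with 2454 at an unadjusted p under 0.05 and a lowest adjusted p of 0.156. The biological coefficient of variation was 44.0% between such line sums and 9.02% between libraries of a line. DESeq2, on the libraries, called 5160 genes higher and 4958 lower.

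Separated genes numbered 1443 higher in the clones (11.4% of tested genes) and 1357 lower (10.7%). Their median absolute difference was 1.08 on the log2 scale, against 0.45 over all tested genes. The gap, the distance on log2(CPM + 0.5) from the nearest clone library to the nearest competent library, exceeded 2-fold in 198 higher genes (1.56%) and in 94 lower genes (0.742%). The rule has a sharp edge. Rasa4 was just inside it, with 7.25 CPM in its lowest clone library against 7.23 CPM in its highest competent library, and Napb was just outside it, with 9.44 against 9.45 CPM. Among lower genes, Nrip1 was just inside, with 18.4 CPM in its highest clone library against 18.5 CPM in its lowest competent library. Parp14 was just outside, with 5.30 CPM in the clones against 5.29 CPM in the competent lines.

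The deleted gene itself did not separate the lines. Fh1 (chromosome 1) ran from 73.5 to 123 CPM in the clones, with a median of 99.8, against 63.8 to 97.1 CPM in the competent lines, with a median of 82.7. The ranges overlapped, and the average was slightly higher in the clones (log2 difference 0.27 ± 0.05 SE, edgeR adjusted p = 2.68e-05, or 0.662 with lines as replicates). By line it averaged 112 ± 5.93 CPM in clone1 and 84.7 ± 7.31 CPM in clone19, against 71.3 ± 7.08 CPM in Rec and 92.3 ± 6.16 CPM in Fh1_fl_fl (SD, n = 5 each). Rec, labelled as re-expressing Fh1, thus had the lowest mean of the 4 lines. The whole-gene count includes reads from any part of the locus that remains, and it is therefore no measure of the deletion and no check of the labels.

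In the clones, the 10 protein-coding genes with the largest gap upwards and at least 10 CPM on the higher side were Igfbp4, Slc6a12, Ugt2b34, Col4a1, Aff2, Ddr2, Elmo1, Nt5e, Col4a2 and Slc6a13. Igfbp4, a secreted binding protein for insulin-like growth factors, ran from 14.7 to 331 CPM in the clones (median 131), against 0 to 0.409 CPM in the competent lines (median 0.209). Every clone library lay at least 16.7-fold above every competent library on the log2(CPM + 0.5) scale. The clones themselves differed, at 276 ± 38.6 CPM in clone1 and 17.3 ± 2.33 CPM in clone19 (SD, n = 5 each).

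Adjacent genes were among the farthest apart. Slc6a13, a carrier of GABA, and Slc6a12, a carrier of betaine and GABA, lie on the same strand of chromosome 6 with 5342 bases between them. Slc6a12 had 40.6 to 157 CPM in the clones (median 94.7), against 0.286 to 2.36 CPM in the competent lines (median 1.13). Slc6a13 had 4.84 to 22.2 CPM in the clones, against 0 to 0.235 CPM in the competent lines, and since Fh1_fl_fl held 3 counts in all, its ratio is given with its counting interval: 121-fold (exact 95% interval 70.3 to 228). Both carriers were lower in clone1 than in clone19 (log2 differences -1.56 and -1.87).

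Col4a1 and Col4a2, the chains of basement-membrane collagen IV, are read head to head from opposite strands of chromosome 8 and overlap by 22 bases. Col4a1 (positions 11198423 to 11312826) ran from 12.7 to 40.8 CPM in the clones (median 23.5), against 0 to 0.623 CPM in the competent lines (median 0.301). Col4a2 (11312805 to 11449287) ran from 8.75 to 19.2 CPM in the clones (median 12.8), against 0 to 0.623 CPM in the competent lines (median 0.239). Every clone library was above every competent library for both chains. Counting by strand is not given in the sources used here, so reads in the shared bases cannot be assigned to 1 chain.

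Ddr2, a receptor tyrosine kinase for fibrillar collagens, had 28.9 to 109 CPM in the clones (median 64.0), against 0.243 to 2.59 CPM in the competent lines (median 0.651). Nt5e, the surface enzyme that releases adenosine from AMP, had 17.8 to 48.1 CPM in the clones (median 31.7), against 0 to 1.66 CPM in the competent lines (median 0.288). It had no counts in the 5 Rec libraries, which allows up to 0.0509 CPM over that line, and the ratio of summed counts was 41.7-fold (exact 95% interval 34.1 to 51.5). Ugt2b34, a UDP-glucuronosyltransferase, ran from 14.1 to 766 CPM in the clones, against 0 to 0.573 CPM in the competent lines, with 620 ± 84.7 CPM in clone1 and 16.0 ± 1.53 CPM in clone19. Its family has near-identical copies, so its counts are uncertain.

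On the lower side the largest gaps included those of Moxd1, Lepr, Piezo2, Slfn9, Serpinb6b, Vsnl1, Pde8a, Ehf and Cpm. Serpinb6b, of the serine protease inhibitor family, fell to between 10.1 and 18.7 CPM in the clones (median 12.9), against 109 to 136 CPM in the competent lines (median 117). It averaged 120 ± 5.87 CPM in Rec and 120 ± 12 CPM in Fh1_fl_fl (SD, n = 5 each), and no difference between these lines was detected (edgeR, adjusted p = 0.963). Lepr, the leptin receptor, fell to between 0 and 2.34 CPM in the clones (median 1.14), against 18.9 to 64.0 CPM in the competent lines (median 36.9).

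Piezo2, a mechanically gated channel, fell to at most 0.409 CPM in the clones, against 5.64 to 39.0 CPM in the competent lines. Ehf, an epithelial ETS transcription factor, had 1.16 to 13.6 CPM in the clones (median 8.05), against 60.7 to 117 CPM in the competent lines (median 81.9). None of these genes had a clone library within 4-fold of a competent library on the log2(CPM + 0.5) scale.

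**Figure D1:**
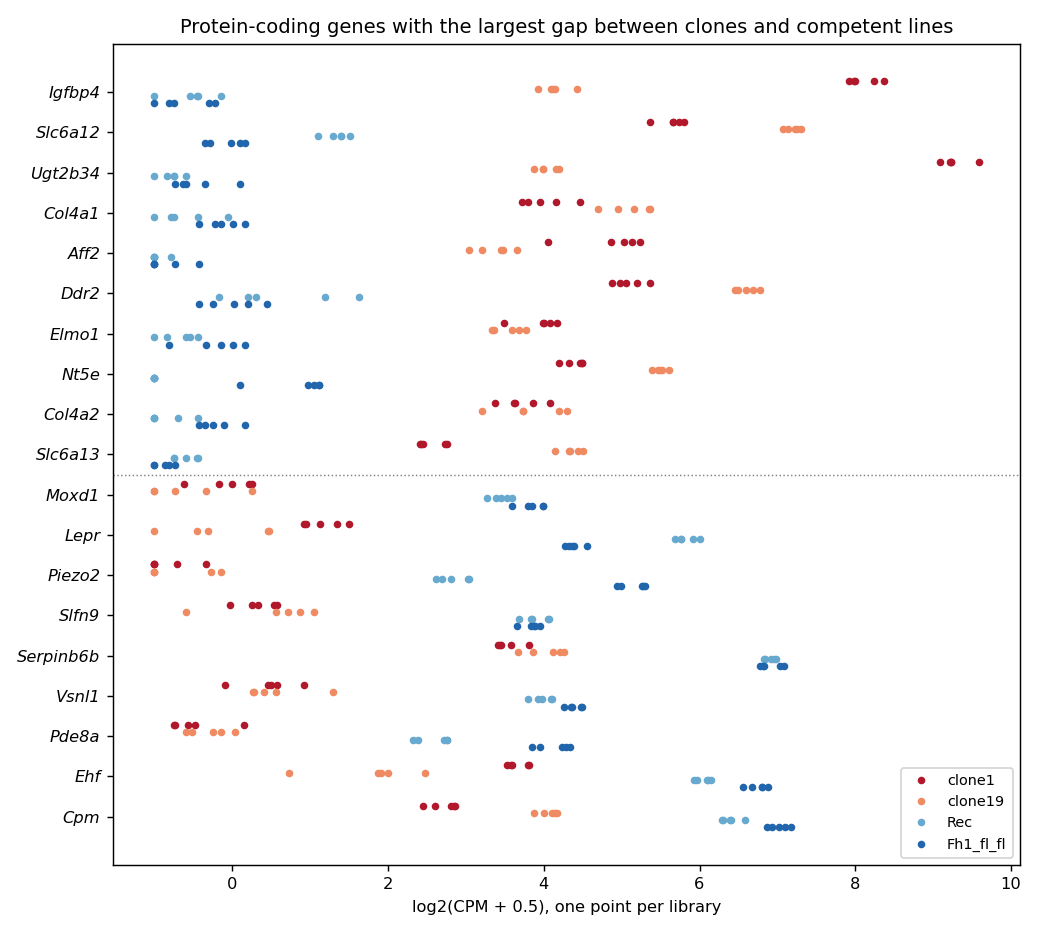
Protein-coding genes with the largest gaps, with log2(CPM + 0.5) on the horizontal axis and 1 point per library, coloured by line (clone1, clone19, Rec, Fh1_fl_fl). In the upper 10 genes every clone point lies to the right of every competent point, and in the genes under the dotted line to the left; clone1 and clone19 stand far apart from each other for Igfbp4 and Ugt2b34.

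HIF targets formed the list with the highest share of separated genes among lists of more than 8 tested members. Of 43 tested members, 34 separated upwards (79.1%, against 11.4% of all tested genes), 2 separated downwards (4.65%, against 10.7%) and 7 overlapped. The median log2 difference was 1.39, against -0.01 over all tested genes. On average 41 were called higher and 2 lower, against 39.4% and 40.3% of all tested genes. Members were listed for their known control by HIF and were chosen with earlier results of these data known, so the count is no independent evidence.

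Ero1l, the oxidase that forms disulfide bonds in the endoplasmic reticulum, had the largest gap in the list: 730 to 1023 CPM in the clones (median 823), against 50.1 to 102 CPM in the competent lines (median 72.0). The log2 difference was 3.55 ± 0.05 SE. Car12, a carbonic anhydrase of the cell surface, averaged 114 CPM in clone1 and 71.0 CPM in clone19, against 21.9 CPM in Rec and 9.22 CPM in Fh1_fl_fl. Vegfa, the angiogenic growth factor, had 327 to 516 CPM in the clones (median 405), against 98.0 to 122 CPM in the competent lines (median 109). The difference between Rec and Fh1_fl_fl was within replicate spread for Vegfa (113 ± 8.14 and 107 ± 7.64 CPM, log2 difference 0.07, adjusted p = 0.279).

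The prolyl hydroxylases that act on HIF are themselves on the list. Egln3 had 51.2 to 69.0 CPM in the clones (median 57.7), against 15.1 to 23.9 CPM in the competent lines (median 20.1), and Egln1 averaged 212 CPM in clone1 and 299 CPM in clone19, against 104 CPM in Rec and 134 CPM in Fh1_fl_fl. Bnip3, an inducer of mitophagy, had 244 to 614 CPM in the clones (median 471), against 46.8 to 142 CPM in the competent lines (median 80.0). Pdk1, the kinase that switches off pyruvate dehydrogenase, had 219 to 347 CPM in the clones (median 290), against 46.6 to 127 CPM in the competent lines (median 79.0). All 4 genes separated with every clone library higher, while Egln2, the remaining hydroxylase of the trio, which is not on the HIF list, separated downwards. The ranges of Egln2 nearly touched, at 11.7 to 17.6 CPM in the clones, against 18.2 to 31.3 CPM in the competent lines.

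Ddit4, an inhibitor of mTORC1, separated in the other direction, at 78.6 to 96.6 CPM in the clones (median 85.3), against 152 to 243 CPM in the competent lines (median 213). Angptl4, a secreted inhibitor of lipoprotein lipase, was also lower, at 2.75 to 9.28 CPM in the clones against 9.43 to 27.2 CPM in the competent lines. Its ranges nearly touched, and they overlapped under DESeq2 size factors. The 7 members that overlapped included Pfkfb4, Hk1, Pgam1, Loxl2, Adm and Edn1.

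The direction held in each pair of lines. The median of the 43 members was 1.57 and 1.44 (log2) in clone1 against Rec and against Fh1_fl_fl, and 1.43 and 1.25 in clone19 against the same lines; these comparisons share libraries. Between the competent lines the median was -0.10 (Rec minus Fh1_fl_fl), and between the clones 0.39 (clone1 minus clone19). Of the 36 separated members, 28 nevertheless differed between the clones and 27 between Rec and Fh1_fl_fl, in a fit where 65.1% and 70.8% of all tested genes did.

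**Figure D2:**
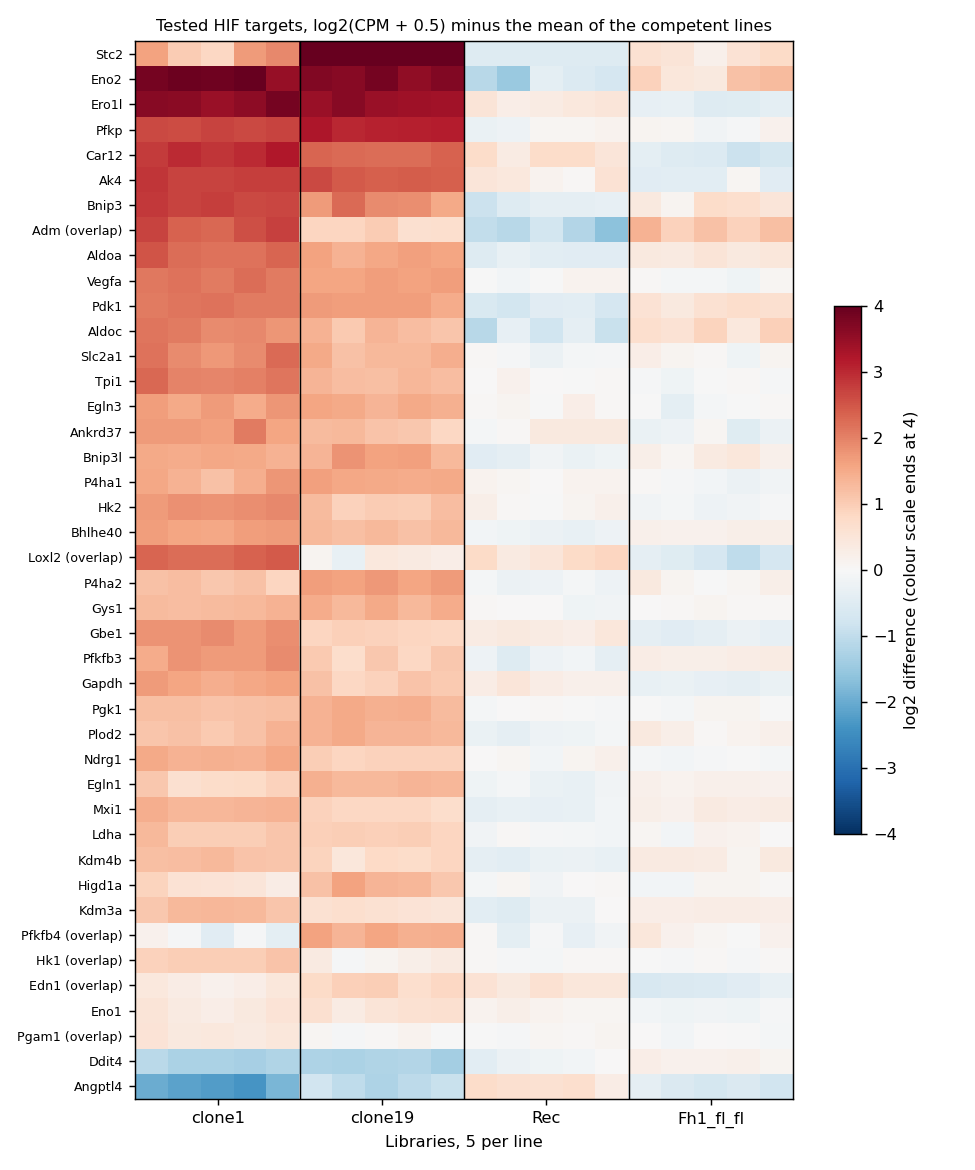
Tested HIF targets in all 20 libraries, with 5 columns per line in the order clone1, clone19, Rec, Fh1_fl_fl. Colour is log2(CPM + 0.5) minus the mean of the competent lines, red above and blue below, and ends at 4 in either direction; the 34 members that separated upwards are red across all 10 clone columns, and Ddit4 and Angptl4 at the foot are blue.

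Promoters of separated genes are shown because the lists are defined by transcription factors with known binding letters. Windows ran from 250 bases before to 50 bases from the annotated start (RefSeq, GRCm38.p6), and both strands were searched. The core of the hypoxia response element, ACGTG, was present in 15 of 29 HIF targets that separated upwards and had an entry (51.7%), in 3 of 6 of the other tested members (50%) and in 26.0% of 9824 promoters of tested genes. The antioxidant response element core, TGANNNNGC, was in 9 of 15 separated NRF2 targets (60.0%), in 14 of 22 others (63.6%) and in 43.2% of all. The C/EBP-ATF core, TGATGNAA, was in 4 of 10 separated genes of the amino acid response (40.0%), in 8 of 23 others (34.8%) and in 2.16% of all. TGANNNNGC and TGATGNAA both open with TGA and can overlap. The letters were thus found in separated and other list members at similar shares, and a match is a description of letters and not of a bound site.

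Capitals mark the matches, which in Ero1l, Aldh1a1 and Trib3 lie on the strand opposite to the printed one. Ero1l (RefSeq symbol Ero1a, chr14:45318523-45318822, minus strand) holds 1 ACGTG core, starting 63 bases before the start. Aldh1a1 (chr19:20492333-20492632, plus strand) and Maff (chr15:79346371-79346670, plus strand) hold 2 TGANNNNGC cores each, and Trib3 (chr2:152344011-152344310, minus strand) holds 1 TGATGNAA core. Ero1l, Aldh1a1 and Maff were taken for their gaps, and Trib3 as the member with the largest gap among the 4 with a match. Pfkp, Ddit3 and Cebpb, also with large gaps, held no match in the window.
Ero1l: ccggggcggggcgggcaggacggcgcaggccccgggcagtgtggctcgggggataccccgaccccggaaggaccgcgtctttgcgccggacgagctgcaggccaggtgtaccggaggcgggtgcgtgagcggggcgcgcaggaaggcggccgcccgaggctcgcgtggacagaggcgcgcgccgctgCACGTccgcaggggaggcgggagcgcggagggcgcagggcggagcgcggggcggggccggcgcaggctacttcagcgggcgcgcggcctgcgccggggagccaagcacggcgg
Aldh1a1: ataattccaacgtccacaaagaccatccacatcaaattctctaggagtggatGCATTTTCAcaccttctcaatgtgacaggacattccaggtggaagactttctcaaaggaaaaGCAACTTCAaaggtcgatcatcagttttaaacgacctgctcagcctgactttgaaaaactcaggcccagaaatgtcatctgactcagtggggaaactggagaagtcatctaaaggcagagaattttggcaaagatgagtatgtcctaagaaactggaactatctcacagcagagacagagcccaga
Maff: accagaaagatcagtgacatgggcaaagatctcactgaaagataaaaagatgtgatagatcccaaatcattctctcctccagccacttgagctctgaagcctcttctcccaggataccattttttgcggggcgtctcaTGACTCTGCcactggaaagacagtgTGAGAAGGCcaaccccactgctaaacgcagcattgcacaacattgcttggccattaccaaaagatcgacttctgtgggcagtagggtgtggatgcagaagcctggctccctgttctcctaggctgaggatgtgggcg
Trib3: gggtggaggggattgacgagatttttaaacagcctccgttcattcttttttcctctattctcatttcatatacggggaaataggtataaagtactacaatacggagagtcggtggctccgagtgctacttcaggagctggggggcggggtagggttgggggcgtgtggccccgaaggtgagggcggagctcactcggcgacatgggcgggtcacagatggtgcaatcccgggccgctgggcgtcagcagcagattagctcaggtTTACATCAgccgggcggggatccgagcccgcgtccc

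Most glycolytic genes were higher in the clones. Of 24 tested genes of the pathway, 17 separated upwards (70.8%, against 11.4% of all tested genes) and 0 downwards (against 10.7%). The list's median log2 difference was 1.28. Of the 24, 15 are also on the HIF list (62.5% of the glycolysis list and 34.9% of the HIF list). Pfkp, the platelet isoform of phosphofructokinase, had 101 to 156 CPM in the clones (median 122), against 13.4 to 18.2 CPM in the competent lines (median 17.1). It did not differ detectably between Rec and Fh1_fl_fl (log2 difference -0.06, adjusted p = 0.536). Eno2, an enolase, had 36.2 to 55.4 CPM in the clones (median 44.7), against 0.688 to 7.56 CPM in the competent lines (median 2.92).

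Separated genes ran from glucose entry to lactate. Slc2a1, the glucose transporter GLUT1, had 202 to 438 CPM in the clones (median 279), against 77.1 to 109 CPM in the competent lines (median 90.2). Tpi1, triosephosphate isomerase, had 1457 to 3117 CPM in the clones (median 2042), against 562 to 706 CPM in the competent lines (median 633). Ldha, which makes lactate, had 2025 to 2779 CPM in the clones (median 2214), against 1011 to 1275 CPM in the competent lines (median 1116), a log2 difference of 1.0 ± 0.05 SE. Among the members off the HIF list, Ldhb averaged 206 CPM in clone1 and 100.2 CPM in clone19, against 17.8 CPM in Rec and 48.7 CPM in Fh1_fl_fl. Hk1, a hexokinase that overlapped, ran from 124 to 282 CPM in the clones, against 121 to 133 CPM in the competent lines.

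NRF2 targets, the enzymes of the oxidative stress response, were also mostly higher but differed more between the clones. Of 46 tested, 19 separated upwards (41.3%, against 11.4% of all tested genes) and 2 downwards (4.35%, against 10.7%). The median log2 difference was 1.20. The list's median was 2.18 and 2.07 in clone1 against Fh1_fl_fl and Rec, and 0.74 and 0.49 in clone19 against them. The median difference between the clones was 1.08 (clone1 minus clone19). All 21 separated members differed between the clones, against 62.5% of all separated genes and 65.1% of all tested genes. Between Rec and Fh1_fl_fl the median was 0.12.

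Hmox1, which breaks down heme, had the largest gap: 494 to 1009 CPM in the clones (median 774), against 39.7 to 121 CPM in the competent lines (median 72.9). The log2 difference was 3.44 ± 0.05 SE, with 540 ± 62.0 CPM in clone1 and 964 ± 40.7 CPM in clone19. Nqo1, a quinone reductase, had 10.8 to 19.1 CPM in the clones (median 16.1), against 2.0 to 3.94 CPM in the competent lines (median 2.88). Slc7a11, the cystine importer, had 155 to 816 CPM in the clones (median 346), against 5.73 to 135 CPM in the competent lines (median 52.0). For Slc7a11 the ranges came close, since Rec averaged 117 ± 18.3 CPM and Fh1_fl_fl 9.37 ± 3.73 CPM.

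Glutathione genes did not move as a block. Gclc, the catalytic subunit of glutamate-cysteine ligase, separated, averaging 331 CPM in clone1 and 104.5 CPM in clone19, against 52.5 CPM in Rec and 44.4 CPM in Fh1_fl_fl. Its modifier subunit Gclm overlapped, at 405 ± 33.0 CPM in clone1 and 77.4 ± 3.72 CPM in clone19, against 66.1 ± 4.78 CPM in Rec and 91 ± 3.88 CPM in Fh1_fl_fl. Gsr, glutathione reductase, separated downwards, with 163 to 249 CPM in the clones (median 192), against 292 to 407 CPM in the competent lines (median 352). Gsta4, a glutathione transferase, separated upwards with 402 ± 46.7 CPM in clone1 and 80.2 ± 12 CPM in clone19, against at most 23.3 CPM in any competent library. Akr1b3, an aldose reductase, was the other member that separated downwards, with 410 to 715 CPM in the clones, against 803 to 2736 CPM in the competent lines.

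Of 22 heme and iron genes, 5 separated upwards (22.7%, against 11.4% of all tested genes) and 2 downwards (9.09%, against 10.7%). The higher ones were Hmox1, Blvrb, the ferritin chains Ftl1 and Fth1, and Alas1. Of the 22, 5 are also on the NRF2 list, and these include all of the higher ones except Alas1. Ftl1 had 1611 to 3161 CPM in the clones (median 2149), against 387 to 604 CPM in the competent lines (median 501). Tfrc, the transferrin receptor, fell to between 183 and 315 CPM in the clones (median 240), against 487 to 998 CPM in the competent lines (median 706). Uros, an enzyme of heme synthesis, was lower too, at 0.867 to 3.66 CPM in the clones, against 6.35 to 12.9 CPM in the competent lines.

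**Figure D3:**
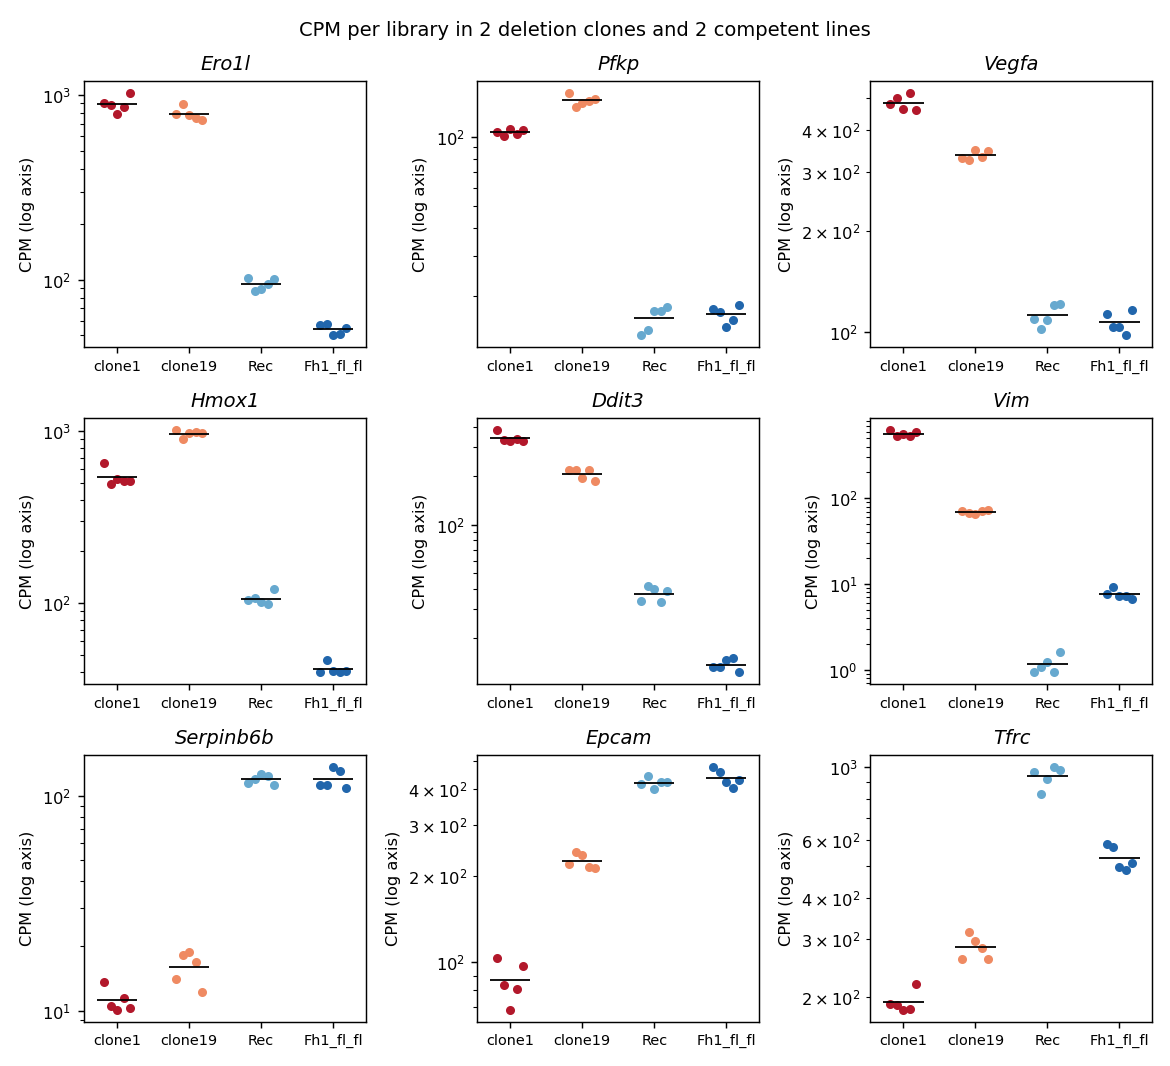
CPM on a logarithmic axis in each library of clone1, clone19, Rec and Fh1_fl_fl for 9 separated genes, with a line at the mean of the 5 libraries. Pfkp, Vegfa and Serpinb6b lie at 1 level in the competent lines, whereas Hmox1 and Ddit3 lie higher in Rec than in Fh1_fl_fl and still below every clone library.

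The amino acid response, genes of the ATF4 programme that answers amino acid and other stress, also differed between the competent lines. Of 41 tested members, 33 were called higher on average and 6 lower, against 39.4% and 40.3% of all tested genes. But only 10 separated upwards (24.4%, against 11.4% of all tested genes) and 3 downwards (7.32%, against 10.7%). The list's median was 1.19 in clone1 and 1.1 in clone19 against Fh1_fl_fl. Against Rec it was 0.28 in clone1 and -0.03 in clone19, and between the competent lines it was 1.13 (Rec minus Fh1_fl_fl).

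Ddit3, the stress factor CHOP, had the largest gap in the list: 186 to 382 CPM in the clones (median 271), against 12.2 to 41.7 CPM in the competent lines (median 24.2). Trib3, a pseudokinase induced by CHOP, had 134 to 231 CPM in the clones (median 165), against 14.2 to 76.7 CPM in the competent lines (median 47.9). Cebpb, a C/EBP factor, had 30.8 to 55.8 CPM in the clones (median 41.5), against 8.45 to 15.1 CPM in the competent lines (median 11.2). Rec was above Fh1_fl_fl for Ddit3 (37.5 ± 3.77 against 13.7 ± 1.14 CPM) and for Trib3 (73.6 ± 1.82 against 17.2 ± 3.98 CPM).

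Atf4 itself overlapped, with 649 ± 51.2 CPM in clone1, 509 ± 30.2 CPM in clone19, 857 ± 45.5 CPM in Rec and 286 ± 15.4 CPM in Fh1_fl_fl. Asns, asparagine synthetase, also overlapped, with 554 to 1111 CPM in the clones (median 756), against 159 to 580 CPM in the competent lines (median 363). It averaged 544 ± 27.9 CPM in Rec and 178 ± 20.1 CPM in Fh1_fl_fl. Slc38a2, an amino acid transporter, was among the 3 that separated downwards, with 314 to 527 CPM in the clones (median 397), against 755 to 1099 CPM in the competent lines (median 922).

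Around the missing step, the median of 45 TCA cycle and pyruvate genes was 0.30. Of the 45, 0 separated downwards (against 10.7% of all tested genes) and 9 upwards (20%, against 11.4%). Among them were Pcx, Me1, Pdk1, Suclg2, Sdha, Pdp1, Me3 and Dlat. Pcx, pyruvate carboxylase, which makes oxaloacetate from pyruvate, had 58.0 to 94.3 CPM in the clones (median 77.0), against 16.6 to 25.7 CPM in the competent lines (median 21.5). It did not differ detectably between the clones (log2 difference 0.07, adjusted p = 0.557). Me1, the cytosolic malic enzyme, had 549 to 1272 CPM in the clones (median 874), against 232 to 269 CPM in the competent lines (median 249). Sdha, the subunit of succinate dehydrogenase that forms fumarate, had 239 to 448 CPM in the clones (median 334), against 150 to 210 CPM in the competent lines (median 172). The other succinate dehydrogenase subunits, Sdhb, Sdhc and Sdhd, overlapped.

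Enzymes linked to fumarate were split. Of 11 tested genes linked to fumarate, 4 separated upwards (36.4%, against 11.4% of all tested genes) and 1 downwards (9.09%, against 10.7%). Of the 11, 5 are also on the TCA cycle list, and Sdha is among the 4 that separated upwards. Ass1, argininosuccinate synthase, had 14.3 to 89.0 CPM in the clones (median 47.8), against 4.00 to 11.4 CPM in the competent lines (median 7.31), and was 15.4 ± 0.659 CPM in clone1 and 83.3 ± 4.28 CPM in clone19. Asl, which splits argininosuccinate into arginine and fumarate, overlapped, with 20.3 to 38.1 CPM in the clones, against 32.6 to 56.4 CPM in the competent lines. Its average was lower in the clones (log2 difference -0.55 ± 0.05 SE, adjusted p = 4.10e-10). Adsl, which releases fumarate in purine synthesis, had at most 72.7 CPM in the clones, against at least 72.9 CPM in the competent lines. Under DESeq2 size factors its ranges overlapped.

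Of 18 genes of arginine and polyamine metabolism, 1 separated upwards (Ass1, 5.56%, against 11.4% of all tested genes). Downwards 3 separated (Amd1, Oaz1 and Azin1, 16.7%, against 10.7%). Of these, Azin1 overlapped under library totals and after thinning to the same depth. Amd1, which supplies the aminopropyl donor of polyamine synthesis, had 18.6 to 31.4 CPM in the clones (median 26.0), against 46.3 to 69.0 CPM in the competent lines (median 59.4). The respiratory chain showed little separation. Of 72 nuclear-encoded subunits, 2 separated upwards (2.78%, against 11.4% of all tested genes) and 0 downwards (against 10.7%). The 2, Ndufa1 and Ndufv3, both overlapped under library totals. Of 12 genes of the mitochondrial genome, mt-Co1 separated upwards and mt-Nd1 downwards (8.33% each).

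Members of the 2-oxoglutarate dioxygenase family, the enzymes that fumarate can inhibit, were more often higher than lower. Of 41 tested, 16 separated upwards (39.0%, against 11.4% of all tested genes) and 3 downwards (7.32%, against 10.7%). The median was 0.40, and 7 of the 41 are also HIF targets. P4ha1, a collagen prolyl hydroxylase, had 291 to 441 CPM in the clones (median 368), against 111 to 142 CPM in the competent lines (median 131). P3h2, a collagen prolyl 3-hydroxylase, had 58.2 to 141 CPM in the clones (median 90.3), against 19 to 34.4 CPM in the competent lines (median 29.7). The histone demethylases Kdm3a, Kdm4b, Kdm7a, Phf8 and Kdm3b separated upwards, and Kdm2b and the ribosomal oxygenase Riox1 separated downwards, Kdm2b not after thinning to the same depth.

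The TET enzymes, which oxidise methylcytosine, overlapped. Tet2 had 4.64 ± 0.899 CPM in clone1 and 0.351 ± 0.161 CPM in clone19, against 2.17 ± 0.196 CPM in Rec and 6.24 ± 0.864 CPM in Fh1_fl_fl. Tet3 had 20.8 to 46.7 CPM in the clones (median 28.4), against 37.5 to 57.2 CPM in the competent lines (median 48.3). Hif1an, the asparagine hydroxylase of HIF, ran from 89.3 to 112 CPM in the clones, against 106 to 181 CPM in the competent lines.

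Epithelial genes were the list with the most members lower in the clones. Of 54 tested, 24 separated downwards (44.4%, against 10.7% of all tested genes) and 2 upwards (3.70%, against 11.4%), with a median of -1.03. The summed level of the 55 listed genes was 5087 to 6710 CPM in the clones (median 6032), against 9529 to 10830 CPM in the competent lines (median 10168). Clone1 was further from the competent lines than clone19: its median was -1.56 and -1.31 against Fh1_fl_fl and Rec, against -0.71 and -0.45 for clone19.

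Epcam, an epithelial adhesion molecule, had 68.6 to 242 CPM in the clones (median 158), against 400 to 476 CPM in the competent lines (median 425). It averaged 86.6 ± 13.8 CPM in clone1 and 226 ± 13.2 CPM in clone19, against 422 ± 15.9 CPM in Rec and 439 ± 29.2 CPM in Fh1_fl_fl. Cdh1, E-cadherin, fell less, to between 135 and 296 CPM in the clones (median 236), against 321 to 481 CPM in the competent lines (median 383). Esrp2, a regulator of epithelial splicing, had 20.3 to 24.3 CPM in the clones (median 22.9), against 59.0 to 129 CPM in the competent lines (median 89.3). Its relative Esrp1 overlapped, at 37.4 ± 1.88 CPM in clone1 and 166 ± 6.75 CPM in clone19, against 183 ± 9.14 CPM in Rec and 171 ± 3.02 CPM in Fh1_fl_fl.

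Among tight junction genes, Cldn7 had 34.6 to 80.4 CPM in the clones (median 62.3), against 136 to 173 CPM in the competent lines (median 149), and Cldn3, Cldn6, Ocln, Marveld2 and Marveld3 also separated downwards. F11r, a junctional adhesion molecule, separated upwards, with 195 to 238 CPM in the clones (median 214), against 110 to 146 CPM in the competent lines (median 126). Krt19, a keratin, overlapped and averaged 638 ± 71.1 CPM in clone1, 457 ± 28 CPM in clone19, 681 ± 53.7 CPM in Rec and 348 ± 17.1 CPM in Fh1_fl_fl.

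Of 30 tested mesenchymal genes, 11 separated upwards (36.7%, against 11.4% of all tested genes) and 2 downwards (6.67%, against 10.7%). The median was 0.63. The summed level of the 44 listed was 4265 to 7142 CPM in the clones (median 5283), against 2755 to 4089 CPM in the competent lines (median 3349). Fn1, given below, made up a large part of these sums, and in clone1 it was at the level of the competent lines. Vim, vimentin, had 65.2 to 621 CPM in the clones (median 302), against 0.934 to 9.34 CPM in the competent lines (median 4.16). It was 566 ± 39.5 CPM in clone1 and 69.5 ± 3.34 CPM in clone19. Zeb2 and Zeb1, repressors of Cdh1, had 45.8 to 77.7 and 15.3 to 58.7 CPM in the clones, against 2.22 to 9.43 and 0.884 to 4.25 CPM in the competent lines.

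Not all mesenchymal markers took part. Postn, periostin, separated downwards, with at most 1.37 CPM in the clones, against 3.16 to 7.06 CPM in the competent lines. Twist1 overlapped, at 12.1 to 21.2 CPM in the clones, against 6.80 to 20.6 CPM in the competent lines. Fn1, fibronectin, overlapped because clone1 (1597 ± 365 CPM) was at the level of Rec (1519 ± 258 CPM) and Fh1_fl_fl (1556 ± 266 CPM), while clone19 averaged 3746 ± 823 CPM. Of 26 collagens and laminins, 7 separated upwards (26.9%, against 11.4% of all tested genes) and 0 downwards (against 10.7%). The 7 were Col4a1, Col4a2, Col5a1, Col6a1, Lama5, Nid1 and Lamc1.

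**Figure D4:**
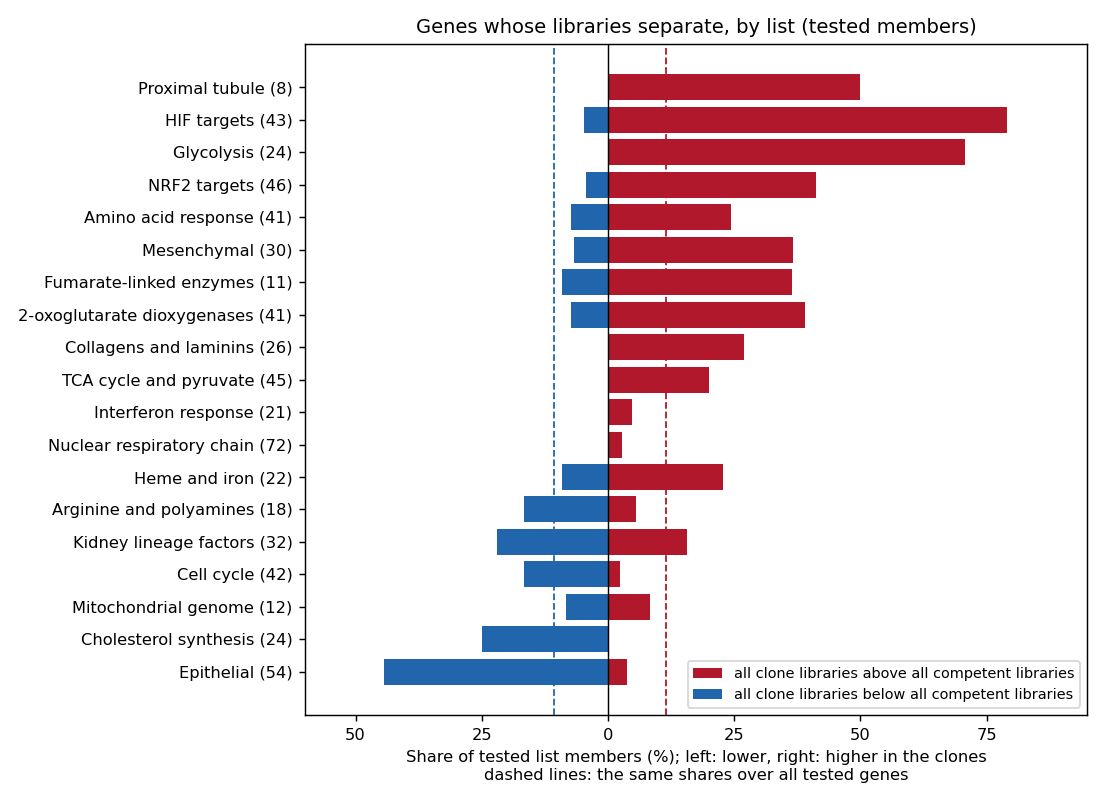
Share of tested members of each list of at least 8 tested genes that separated, with the number tested in brackets; red bars to the right are members with all clone libraries above all competent libraries, blue bars to the left the opposite. Dashed lines mark 11.4% and 10.7%, the shares over all tested genes; HIF targets reach 79.1% on the right and epithelial genes 44.4% on the left.

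Of 24 tested genes of cholesterol synthesis, 6 separated downwards (25%, against 10.7% of all tested genes) and 0 upwards (against 11.4%). The median was -0.36, and Idi1, Mvk, Nsdhl and Fdps were among the lower ones. The list's median was -0.10 and -0.19 in clone1 against Fh1_fl_fl and Rec, and -0.65 and -0.73 in clone19 against them. Idi1, isopentenyl-diphosphate isomerase, had 55.9 to 95 CPM in the clones (median 78.9), against 170 to 374 CPM in the competent lines (median 246). Srebf2, a transcription factor that regulates the pathway, overlapped.

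Of 42 cell cycle genes, 1 separated upwards (2.38%, against 11.4% of all tested genes) and 7 downwards (16.7%, against 10.7%). The list's median was -0.68 in clone1 and -0.60 in clone19 against Rec, but 0.13 and 0.21 against Fh1_fl_fl, and 0.69 between the competent lines (Rec minus Fh1_fl_fl). Rb1, the retinoblastoma protein, whose gene overlaps that of Lpar6, was the member that separated upwards, with 50.7 to 112 CPM in the clones (median 73.2), against 15.0 to 21.8 CPM in the competent lines (median 17.5). Tyms, thymidylate synthase, had 26.2 to 36.2 CPM in the clones (median 29.4), against 75.3 to 128 CPM in the competent lines (median 96.5). Cdk4, a G1 kinase, had 130 to 208 CPM in the clones (median 168), against 412 to 511 CPM in the competent lines (median 441).

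Of 32 kidney lineage factors, 5 separated upwards (15.6%, against 11.4% of all tested genes) and 7 downwards (21.9%, against 10.7%). Pax2, a factor of nephron formation, fell to between 26.7 and 50.8 CPM in the clones (median 44.7), against 92.3 to 293 CPM in the competent lines (median 171), whereas its relative Pax8 separated upwards. Lhx1 was nearly silent in the clones, at no more than 0.199 CPM, against 1.98 ± 0.339 CPM in Rec and 25.9 ± 1.34 CPM in Fh1_fl_fl. Lhx1 had 2 counts in all in each clone, and its summed level in the clones was lower by a ratio of 330 (competent over clones, exact 95% interval 129 to 1214). Of 21 interferon response genes, Ifit3 alone separated, upwards, and it overlapped when libraries were thinned to the same depth.

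Markers of other nephron segments and cell types moved as well, and their part in the results was not tested. The 24 listed proximal tubule genes summed to 321 to 500 CPM in the clones (median 374), against 96.1 to 255 CPM in the competent lines (median 163). Only 8 of the 24 were tested, and 4 of these separated upwards (50%, against 11.4% of all tested genes): Anpep, Lrp2, Ass1 and Aqp1. Ass1 is also on the fumarate-linked and arginine lists. The 21 genes of distal tubule and collecting duct summed to 290 to 673 CPM in the clones (median 460), against 749 to 1789 CPM in the competent lines (median 1150). Krt7 made up most of these sums, at 270 to 658 CPM in the clones (median 443), against 727 to 1772 CPM in the competent lines (median 1130). Krt7 alone separated among the 6 tested, downwards (16.7%, against 10.7% of all tested genes), and it is also on the epithelial list. Umod had 0 counts in the 10 clone libraries, which allows up to 0.0341 CPM, against 221 counts in the competent libraries. It ran from 0 to 3.74 CPM in the competent libraries (median 1.29), so its ranges overlapped. Individual markers separated in both directions. Cdh5 (0.915 to 9.44 CPM in the clones, against 0 to 0.899 CPM in the competent lines), Des (1.40 to 6.67 CPM in the clones, against 0 to 0.245 CPM in the competent lines) and the leukocyte marker Cd68 (6.93 to 19.2 CPM in the clones, against 1.72 to 4.37 CPM in the competent lines) were higher in the clones. The ranges of Cdh5 nearly touched, and they overlapped when genes with low counts were not filtered out. Csf1r was lower, with 5.64 to 15.1 CPM in the clones, against 18.4 to 47.7 CPM in the competent lines. Endothelial markers summed to 8.98 to 14.2 CPM in the clones, against 1.93 to 4.28 CPM in the competent lines. Leukocyte markers summed to 21.4 to 32.3 CPM in the clones, against 22.2 to 52.5 CPM in the competent lines, and smooth muscle markers to 22.5 to 99.9 CPM against 13.7 to 65.1 CPM. Podocyte markers summed to 869 to 1201 CPM in the clones, against 964 to 1154 CPM in the competent lines.

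Separated genes still varied within a status. Of the 2800, 1749 differed between clone1 and clone19 (62.5%, against 65.1% of all tested genes) and 1780 between Rec and Fh1_fl_fl (63.6%, against 70.8%). Both shares are conditioned by the rule, which uses the same libraries. Differences over 2-fold were called between the clones in 229 separated genes (9.58% of all tested genes were so called) and between Rec and Fh1_fl_fl in 204 (11.1%). Clone1 was further from the competent lines than clone19 in 66.6% of separated genes. Rec was nearer to the clones than Fh1_fl_fl was in 47.2%. For 408 separated genes neither difference was called. The same count over all tested genes was not made, so the 408 are no result about separated genes as a group.

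Some genes were close to a step by status; those given here were picked after their values were seen and are not the closest in order. Kcnab2, a potassium channel beta subunit, had 13.2 to 18.1 CPM in the clones (median 16.2), against 1.21 to 2.16 CPM in the competent lines (median 1.83). Numbl, a relative of the cell-fate protein Numb, had 24.2 to 40.8 CPM in the clones (median 37.4), against 7.57 to 10.8 CPM in the competent lines (median 8.57), with log2 differences of 0.01 between the clones (clone1 minus clone19) and -0.02 between the competent lines (Rec minus Fh1_fl_fl). For neither gene did lines of the same status differ detectably, with adjusted p from 0.0750 for Kcnab2 to 0.920 for Numbl between the clones.

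Maoa, monoamine oxidase A, had 597 to 881 CPM in the clones (median 694), against 94.5 to 109 CPM in the competent lines (median 100.4), and Rec and Fh1_fl_fl both averaged 101 CPM. Pim1, a serine/threonine kinase, had 143 to 189 CPM in the clones (median 157), against 20.3 to 26.1 CPM in the competent lines (median 23.3). On the lower side, Trim65, a ubiquitin ligase, had 2.80 to 3.48 CPM in the clones (median 2.95), against 9.86 to 12.8 CPM in the competent lines (median 11.7). Hace1, another ubiquitin ligase, had 11.8 to 17.3 CPM in the clones (median 15.9), against 29.8 to 38.7 CPM in the competent lines (median 34.5). Of these genes, Maoa and Pim1 differed slightly between the clones, each lower in clone1 than in clone19 (log2 differences -0.28 and -0.26, adjusted p = 0.000288 and 0.00125).

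Separated genes were unevenly spread over the chromosomes, a pattern noticed after the values were seen. On chromosome 6, 22.9% of tested genes separated upwards and 3.51% downwards, with a median log2 difference of 0.39 over its 598 tested genes. On chromosome 10, 4.70% separated upwards and 24.9% downwards (median -0.39), on chromosome 12 the shares were 4.67% and 18.7% (median -0.41), and on chromosome 8 they were 6.90% and 21.4% (median -0.25). DNA copy number was not measured, and its part in the results was not tested. Slc6a12, Slc6a13, Eno2 and Tpi1, all higher in the clones, lie on chromosome 6, as does Akr1b3, which separated downwards. Moxd1, Cpm, Ddit4, Cdk4, Hace1, Amd1 and Oaz1, all lower, lie on chromosome 10, as do Ddit3 and P4ha1, which separated upwards.

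Away from chromosomes 6, 8, 10 and 12, HIF targets separated upwards in 24 of 31 members and downwards in 1, with a median of 1.37. Over all 10374 genes tested there, 11.7% separated upwards and 9.29% downwards. Glycolytic genes separated upwards in 11 of 17, and NRF2 targets in 16 of 38 with 0 downwards. Epithelial genes separated downwards in 20 of 45 and mesenchymal genes upwards in 11 of 25. The 4 chromosomes were set aside after their values were seen, and others were uneven too, such as chromosome 18 (18% upwards and 4.89% downwards) and chromosome 19 (7.73% and 16.6%).

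**Figure D5:**
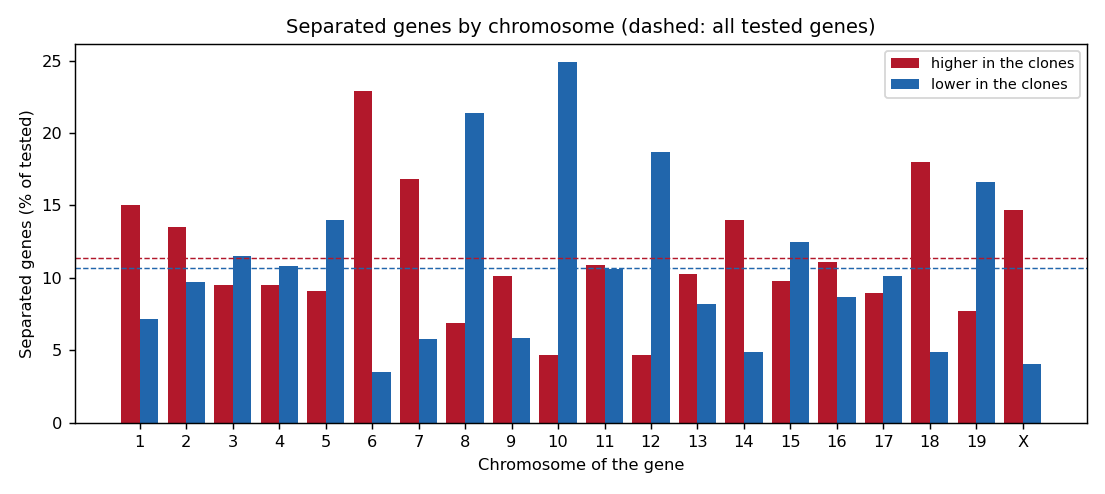
Share of the tested genes of each chromosome that separated, red for higher and blue for lower in the clones; dashed lines are the shares over all tested genes. Chromosome 6 has the tallest red bar (22.9%) and chromosome 10 the tallest blue bar (24.9%).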

How the data were processed

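The authors deposited raw counts of reads per gene for each of the 20 RNA-seq libraries, made, per the submitters' processing notes, with TopHat2 2.0.4 and HTSeq 0.5.3p9 on GRCm38; the notes also name DESeq 1.10.1. Whether counting used strand is not given in the sources used here. The 5 summary lines of each table were left out of library sizes. Symbols and gene positions came from GENCODE mouse release M21, promoters from RefSeq.

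All 39179 genes were filtered by edgeR's filterByExpr, leaving 12671, and fitted with edgeR 4.0.16 (quasi-likelihood, TMM scaling, Benjamini-Hochberg adjusted p under 0.05, R 4.3.3) on all 20 libraries with 1 mean per line. The contrast was the mean of both clones minus the mean of both competent lines. A total of 3 counts in a library is 0.158 to 0.501 CPM; intervals and such floors cover counting error only.

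Members, gene lists and tests were chosen with earlier results of these data known. Named genes were Fh1, the 10 largest gaps per direction with at least 10 CPM on the higher side, up to 3 separated members per list and direction, and a set of pathway genes; a few genes that the rule names are not reported here. Outside that rule, Car12, Egln1, Ldhb, Gclc, Gclm, Atf4, Esrp1, Twist1, Fn1, Tet2, Tet3, Hk1, Bnip3, Hif1an, Cldn7, Krt19 and the genes close to a step were named after their values were seen. Tpi1, Pdk1 and P4ha1 were also picked after their values were seen, but the rule names them too. Same-numbered replicates were checked for pairing and did not deviate together, so no block was used. Alternatives were DESeq2 1.42.0, other scalings, no filter, line sums, other gap settings, leaving out each library and, added after seeing the data, thinning to equal depth.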

Additional observations from a re-analysis of the deposited data

Results flagged for a closer look

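In 33 of 480 sets of 5 libraries, 1 gene in 1 line each, a library lay farther from the other 4 than Dixon's test allows at the 95% level; chance alone picks about 1 in 20 such sets. Replicate 1 of clone1 was that library in 12 of the 33. In it, Fh1, Hmox1, Gsta4 and Akr1b3 stood apart: Fh1 (123 CPM, against 108 to 112 in the other 4), Hmox1 (649 CPM, against 494 to 528 in the other 4), Gsta4 (483 CPM, against 365 to 397 in the other 4), Akr1b3 (715 CPM, against 580 to 606 in the other 4). So did Ddit3 (382 CPM, against 326 to 338 in the other 4), Oaz1 (118 CPM, against 79.0 to 89.5 in the other 4), Ftl1 (3161 CPM, against 2437 to 2486 in the other 4), Ndufa1 (68.5 CPM, against 48.7 to 53.7 in the other 4). The remaining genes of that library were Lhx1 (0.199 CPM, against 0 in the other 4), Cd68 (9.35 CPM, against 6.93 to 7.45 in the other 4), Atf4 (740 CPM, against 615 to 640 in the other 4), Krt19 (763 CPM, against 591 to 630 in the other 4). Where the other 4 libraries hold 0, any count is flagged whatever its size, so such a flag has no weight. This holds for Lhx1 here (2 counts in clone1) and, below, for Aff2, Foxd1 and Anpep in Rec (1 count each) and Des in Fh1_fl_fl. These flags are included in the 33.

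Replicate 4 of clone1 stood apart for Pde8a (0.610 CPM, against 0.0968 to 0.220 in the other 4). Replicate 5 of clone1 stood apart for Ugt2b34 (766 CPM, against 543 to 600 in the other 4), Tfrc (219 CPM, against 183 to 190 in the other 4), Hk1 (282 CPM, against 246 to 256 in the other 4). Replicate 1 of clone19 stood apart for Csf1r (11.3 CPM, against 5.64 to 7.18 in the other 4). Replicate 2 of clone19 stood apart for Vsnl1 (1.96 CPM, against 0.699 to 0.983 in the other 4), Azin1 (343 CPM, against 295 to 309 in the other 4), Col5a1 (10.4 CPM, against 17.5 to 20.2 in the other 4), Pax2 (26.7 CPM, against 43.9 to 50.5 in the other 4). Replicate 4 of clone19 stood apart for Slc38a2 (314 CPM, against 357 to 371 in the other 4). Replicate 5 of clone19 stood apart for Pdk1 (219 CPM, against 246 to 255 in the other 4). Replicate 2 of Rec stood apart for Rrm2 (601 CPM, against 558 to 567 in the other 4), Foxd1 (0.0982 CPM, against 0 in the other 4), Cldn7 (173 CPM, against 141 to 147 in the other 4). Replicate 3 of Rec stood apart for Aff2 (0.0817 CPM, against 0 in the other 4), Sdha (183 CPM, against 202 to 210 in the other 4). Replicate 5 of Rec stood apart for Anpep (0.0578 CPM, against 0 in the other 4). Replicate 2 of Fh1_fl_fl stood apart for Hmox1 (47.0 CPM, against 39.7 to 40.3 in the other 4). Replicate 4 of Fh1_fl_fl stood apart for Des (0.143 CPM, against 0 in the other 4). Replicate 5 of Fh1_fl_fl stood apart for Nt5e (0.576 CPM, against 1.46 to 1.66 in the other 4), Foxd1 (0.0720 CPM, against 0.286 to 0.343 in the other 4).

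Among the 107 named separated genes, 19 differed between the clones by more than 2-fold (edgeR's test against a 2-fold bound, adjusted over all tested genes). Of all tested genes, 9.58% were so called. Many named genes were chosen for large gaps or after their values were seen, so the count is no result about them as a group. For the 19, the size of the difference from the competent lines was not the same in clone1 and clone19. On the log2 scale (clone1 minus clone19), the genes higher in clone1 were Igfbp4 (3.99), Ugt2b34 (5.28), Aff2 (1.58), Lepr (1.91), Ehf (1.87), Gsta4 (2.33), Vim (3.03), Ifit3 (1.55), Foxd1 (1.81), Anpep (2.90), Zeb1 (1.53), Slc7a11 (2.04). Those lower in clone1 were Slc6a12 (-1.56), Ddr2 (-1.51), Slc6a13 (-1.87), Cpm (-1.40), Ass1 (-2.44), Cdh5 (-2.15), Epcam (-1.38).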

How the results depend on the processing

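Of all settings tried, treating the lines as replicates changed the counts of called genes most: edgeR then called 0 genes higher and 0 lower, and 0 over 2-fold in either direction, in place of 4990, 5103, 1201 and 788, with 4 sums in place of 20 libraries. Gaps over 2-fold upwards fell to 129 genes with a pseudocount of 2. Gaps over 4-fold were left in 46 genes upwards and 16 downwards. No named gene changed direction, but which direction held more genes did: 1199 genes separated upwards and 1538 downwards under library totals, against 1443 and 1357, and DESeq2 called 5160 higher and 4958 lower. Library totals without scaling moved the median of all tested genes to -0.08, against -0.01 under TMM (log2), and the share of higher genes among those called to 44.4%, against 49.4%. Without any 1 library, 1449 to 1562 genes separated upwards and 1300 to 1485 downwards, 4958 to 5162 were called higher and 4875 to 5162 lower, and 198 to 219 and 95 to 102 had gaps over 2-fold. Among list counts, 1211 stayed within 1.5 times and 37 moved, among them the HIF targets lower in the clones (2, or 1 under DESeq2) and the lower fumarate-linked enzymes (1, or 0 under DESeq2).

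Replicate numbers did not pair the libraries: same-numbered libraries had correlations of -0.26 to 0.221, 6 of 30 pairs were over 0.1, and 2 of 20 libraries correlated best with their own number. With the replicate number as a block, 4970 genes were called higher and 5089 lower.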
